A study of Oryzias melastigma with 6 samples.

Results

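The 2 mature arms of the microRNA miR-9, miR-9-5p and miR-9-3p, were followed through 6 small RNA libraries of the marine medaka, Oryzias melastigma. A listed sequence was taken as a member if it matched the conserved vertebrate arm with a 5′ end shifted by at most 3 nt, at most 2 mismatches and an overlap of at least 17 nt. Of 1571 distinct sequences in the 6 libraries, 95 were members, 20 of miR-9-5p and 75 of miR-9-3p, and none of the 95 was listed outside brain. Female brain listed 1150 sequences of any kind and male brain 1127, against 321 to 400 in each other library. Brain, liver and gonad (ovary or testis) of sexually mature, breeding females and males, with no treatment named in the labels, gave 1 library each, made from RNA of pooled tissue. Neither the number of fish per pool nor a strain was given. With 1 library per sex and organ, a difference between the sexes had no replicate check and received no test. Brain was compared with the other organs by placing the female and male libraries of an organ together as 2 samples, and ovary with testis as the gonads.

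A microRNA precursor is a hairpin, and each side can give rise to a mature RNA of which bases 2 to 8, the seed, pair with target messages. A change of the 5′ end by 1 base therefore changes the seed, whereas a change of the 3′ end leaves it as it was. In vertebrates miR-9 is known as a microRNA of the nervous system, made in neural progenitors and in neurons. In zebrafish its 5p arm acts on her genes that keep progenitors dividing, and in human cells the 5p arm was found to act on REST and the 3p arm on its partner CoREST, both repressors of neuronal genes.

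Values are read counts per 1000000 reads of the library (RPM), and a sequence below a minimum of 6.002 to 10.03 RPM, depending on the library, was not listed. The spacing of the values gave totals of 18660890 to 25534736 reads per library, so that this minimum stood for 112 to 256 reads. Listed sequences were 20 to 23 nt long, so longer and shorter forms were not analysed here. The organ labels were checked against marker microRNAs. A brain list of miR-124-3p, miR-128-3p, miR-137-3p, miR-138-5p and miR-153-3p summed to 37805 RPM in female and 30973 RPM in male brain and to 6.46 to 35.5 RPM in the other 4 libraries. The liver markers miR-122-5p and miR-192-5p/miR-215-5p were unlisted in both brains, miR-194-5p was at 8.61 RPM in female and unlisted in male brain, and both arms of the gonad marker miR-202 were unlisted in both. Of all reads, 23.1% in female and 20.9% in male brain belonged to arms of hand-listed miRNA families, but 1.504% to 2.31% in the other libraries.

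The sequences on which the results turn are written 5′ to 3′ with T for U and with their own seed in capitals. They show the main form of each arm and the form of miR-9-3p with the 5′ end taken as conserved. Shown too are other forms with a different 5′ or 3′ end, and a form with a changed base. Each name gives the first base, the length and any substitution. Positions are counted from 1 at the 5′ end of a 22-nt reference for each arm, the most abundant listed sequence with the conserved seed. Position 1 follows from the seed taken as conserved, CTTTGGT for miR-9-5p and TAAAGCT for miR-9-3p, which was not checked against a database. The 3′ end of the reference is that of the listed sequence and was not checked either. A base past it is therefore not known to be an addition to the mature arm.
miR-9-5p, start 1, 22 nt: tCTTTGGTtatctagctgtatg
miR-9-5p, start 1, 21 nt: tCTTTGGTtatctagctgtat
miR-9-5p, start 2, 22 nt: cTTTGGTTatctagctgtatga
miR-9-3p, start 2, 22 nt: tAAAGCTAgataaccgaaagta
miR-9-3p, start 2, 22 nt, T12G: tAAAGCTAgagaaccgaaagta
miR-9-3p, start 1, 22 nt: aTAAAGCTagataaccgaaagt
miR-9-3p, start 2, 21 nt: tAAAGCTAgataaccgaaagt
miR-9-3p, start 3, 21 nt: aAAGCTAGataaccgaaagta
In this notation T12G means that the reference has T at position 12 and the listed sequence has G. The forms of one arm come from the same libraries and overlap in nearly all of their bases, so they are not replicates of each other.

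The 5p arm summed to 5222 RPM in female brain and 3602 RPM in male brain, and the 3p arm to 32503 RPM and 35274 RPM. Both arms were unlisted in female liver, male liver, ovary and testis. This was not particular to miR-9. Of 116 family arms, 108 were listed in female and 105 in male brain, but 54 to 65 in each other library. No more than 41 of the 116 were listed in all 6 libraries. Arms such as miR-124-3p, miR-132-3p, miR-137-3p and miR-138-5p were also listed in brain alone. In female brain miR-9-3p was second only to let-7-5p among the family arms, with 14.09% of the reads given to miRNA families (95% exact binomial interval 14.06% to 14.12%). In male brain it was the most abundant arm, with 16.86% (16.82% to 16.89%). The 5p arm ranked 14 in female and 16 in male brain, with 2.26% (2.25% to 2.28%) and 1.72% (1.71% to 1.73%) of these reads. These intervals, like those that follow, cover counting error only, since amplified reads without molecular identifiers are not independent molecules. Levels of different arms are read levels, and ligation and amplification can favour one small RNA over another.

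**Figure D1:**
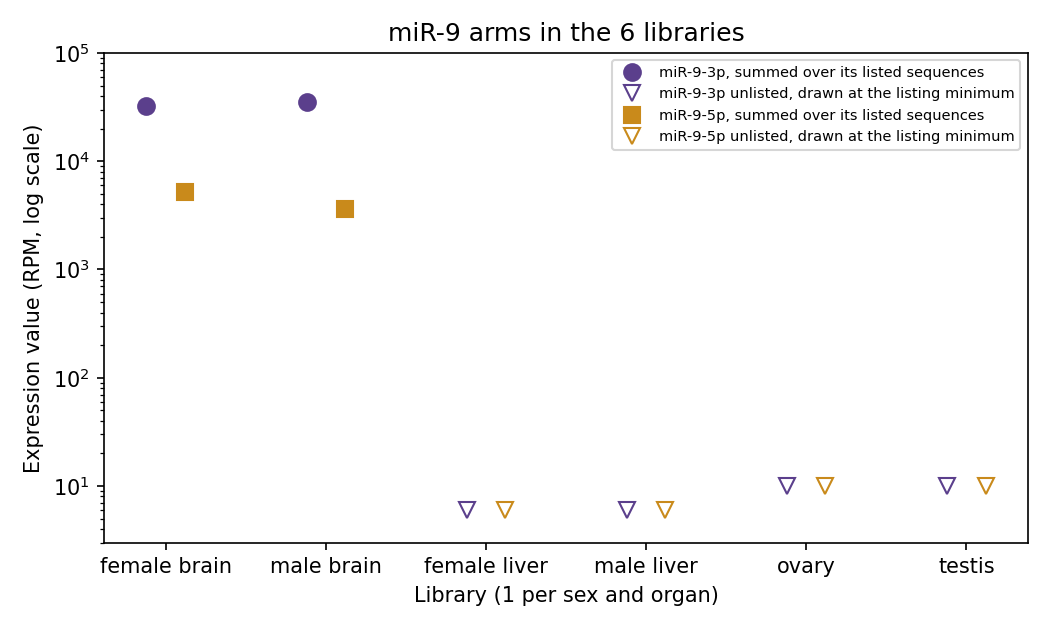
Summed expression value of each miR-9 arm (y axis, RPM, log scale) in the 6 libraries (x axis, 1 library per sex and organ). Filled symbols are sums of listed sequences, with miR-9-3p at 32503 and 35274 RPM and miR-9-5p at 5222 and 3602 RPM in brain, and open triangles mark unlisted arms at the listing minimum of that library, 6.002 to 10.03 RPM.

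Because an unlisted sequence could lie anywhere below the minimum, the excess of a single form in brain, on unscaled RPM, is a lower bound. For a summed arm it need not be, since several unlisted forms could together exceed the minimum. The 22-nt form of miR-9-5p that starts at position 1 was at 2144 RPM in female and 1789 RPM in male brain, which is at least 297-fold higher than either liver library and at least 178-fold higher than either gonad library. For miR-9-3p the most abundant form was at 17007 RPM and 19961 RPM, at least 2819-fold higher than in liver and at least 1696-fold higher than in gonads. In a limma model of all family arms with organ as the factor, on log2(RPM + 1) with all values below the highest minimum raised to 10.03 RPM, miR-9-5p was higher in brain than in liver by 8.62 ± 0.21 (SE, 2 libraries per organ; Benjamini-Hochberg adjusted p = 1.56e-05). Against the gonads the log2 difference was again 8.62 ± 0.21 in limma (adjusted p = 1.91e-05). For miR-9-3p the difference in limma was 11.58 ± 0.11 against either organ (adjusted p = 3.56e-06 for both). These differences are set by the raised minimum on the side of liver and gonads, which had no spread there, and an arm listed in brain alone had to differ. In the same fit 66.1% of the 112 arms tested (74 arms) were called higher in brain than in liver, with 6 lower, and 67.9% (76 arms) were called higher than in gonads, with 7 lower. A call of higher in brain was thus the usual outcome of the fit. The median log2 difference over all 112 arms was 2.32 against liver and 2.44 against gonads. After scaling to the reads of miRNA families that median was 0.00 in both comparisons, 28 of 88 arms were called higher and 16 lower against liver, and 28 higher and 21 lower against gonads. On that scale miR-9-5p remained higher in brain by 4.86 ± 0.16 (limma, adjusted p = 5.95e-05 against liver and 7.13e-05 against gonads) and miR-9-3p by 7.83 ± 0.12 (adjusted p = 9.66e-06 and 1.03e-05). With median-of-ratios scaling the medians were 0.44 and 0.75, and of 91 arms 38 were called higher and 13 lower against liver and 35 higher and 15 lower against gonads. There miR-9-5p was higher in brain by 5.75 ± 0.14 and miR-9-3p by 8.71 ± 0.22 against either organ (limma, adjusted p = 1.55e-05 for both arms against liver and 1.29e-05 against gonads). In bulk tissue, fewer cells of a type and less RNA per cell cannot be told apart.

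The arms whose levels over the 6 libraries were most like those of miR-9 were sought next. Likeness was the Euclidean distance between log2 RPM over 6 libraries, among 73 arms with at least 50 RPM in both brains. Closest to miR-9-5p was miR-132-3p at a distance of 0.28, with 4350 RPM in female and 3860 RPM in male brain. Next came miR-124-3p at 0.46, with 5781 and 4860 RPM. Then followed miR-137-3p at 1.35, miR-128-3p at 1.39 and miR-138-5p at 1.58. Of these 5 arms only miR-128-3p was listed outside brain, at 6.46 to 17.4 RPM. Closest to miR-9-3p was miR-153-3p, at 1.85, with 19272 and 15467 RPM in brain and 22.9 RPM in ovary. After it came miR-128-3p at 3.25, miR-124-3p at 3.79, miR-132-3p at 4.31 and miR-137-3p at 5.54. The 2 arms of miR-9 lay at 4.22 from each other. All distances here rest on the brain levels and on the shared absence elsewhere, and are descriptions only.

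Summed over all their forms, the 2 arms differed in opposite directions between the brain libraries. The 5p arm was 1.45-fold higher in female than in male brain (95% exact interval of the ratio 1.44 to 1.46), and the level of the 3p arm in female brain was 0.921 of that in male brain (0.918 to 0.924). For the 3p arm this direction, on unscaled RPM, rests on the forms that begin past position 1. Counted over forms that begin at position 1 alone, the female-to-male ratio was 1.132 for miR-9-3p (1.124 to 1.141). For miR-9-5p it was 1.417 (1.403 to 1.431), so both were above 1, but the ratio for miR-9-3p was below the median over brain arms that follows. Among 80 arms with at least 50 RPM in the higher brain library, the female-to-male ratio had a median of 1.19 and ran from 0.613 to 3.66, with 67 arms above 1. Within that spread 19 arms had a higher ratio than miR-9-5p and 8 had a lower ratio than miR-9-3p. A list of 7 miRNA arms known to act with miR-9 in neurogenesis was set beside them. It held miR-124-3p, miR-125-5p, miR-128-3p, miR-132-3p, miR-137-3p, miR-7-5p and let-7-5p. Not all are particular to brain, as let-7-5p was at 1571 to 6870 RPM in the other libraries. All 7 had ratios above 1, from 1.13 for miR-132-3p to 1.40 for miR-7-5p. In the brain list used to check the organ labels, ratios ran from 1.005 for miR-138-5p to 1.255 for miR-128-3p. Scaled to miRNA family reads, the ratio was 1.31 for miR-9-5p and 0.836 for miR-9-3p, and with the median ratio of 103 arms set to 1 it was 1.23 and 0.783. The red cell arms miR-451-5p and miR-144-3p summed to 1767 RPM in female and 964 RPM in male brain (ratio 1.83), and the muscle arms miR-1-3p and miR-133-3p to 328 and 186 RPM (ratio 1.77). Both lists hold 2 arms, and miR-133-3p was at 8.56 RPM in female and unlisted in male brain. The muscle ratio thus rests on miR-1-3p. Of further muscle arms outside the list, miR-499-5p was at 30.8 RPM in female and 44.1 RPM in male brain. For miR-206-3p the levels were 26.6 and 19.2 RPM. The part of either list in the miR-9 values was not tested.

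The 3p arm exceeded the 5p arm in both brains, 6.23-fold in female (95% exact interval 6.19 to 6.26) and 9.79-fold in male (9.72 to 9.87). Over forms that begin at position 1 alone these ratios were 1.439 and 1.80. Both arms together came to 37725 RPM in female and 38877 RPM in male brain, or 16.4% and 18.6% of miRNA family reads. On the log2 scale the arm ratio was 2.64 in female and 3.29 in male brain, 0.65 higher in male. This shift was compared with those of the 16 other miRNAs that had both arms listed in both brains. Their shifts had a median size of 0.31, and 3 of the 16 were at least as large as that of miR-9. These were miR-219 with 1.22, miR-142 with 0.74 and miR-19 with a shift of -0.93, towards 3p in female brain. The shift of miR-219 rests on a 3p arm at 8.79 RPM in female and 14.6 RPM in male brain. That of miR-142 rests on a 5p arm at 14.1 and 8.15 RPM. Each of these arms lies near the listing minimum in 1 of the brains, 8.03 RPM in female and 6.03 RPM in male. The 3p arm of miR-219 holds 2 listed sequences, so its shift can depend on which passed the minimum. The minor arm of miR-9, 5p, held 13.8% of its reads in female and 9.27% in male brain, and in 4 of the 16 others in female and 6 in male brain the minor arm held a larger share. The 3p arm was also the larger one in 7 of the 16 others in both brains, and the 5p arm in 8.

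**Figure D2:**
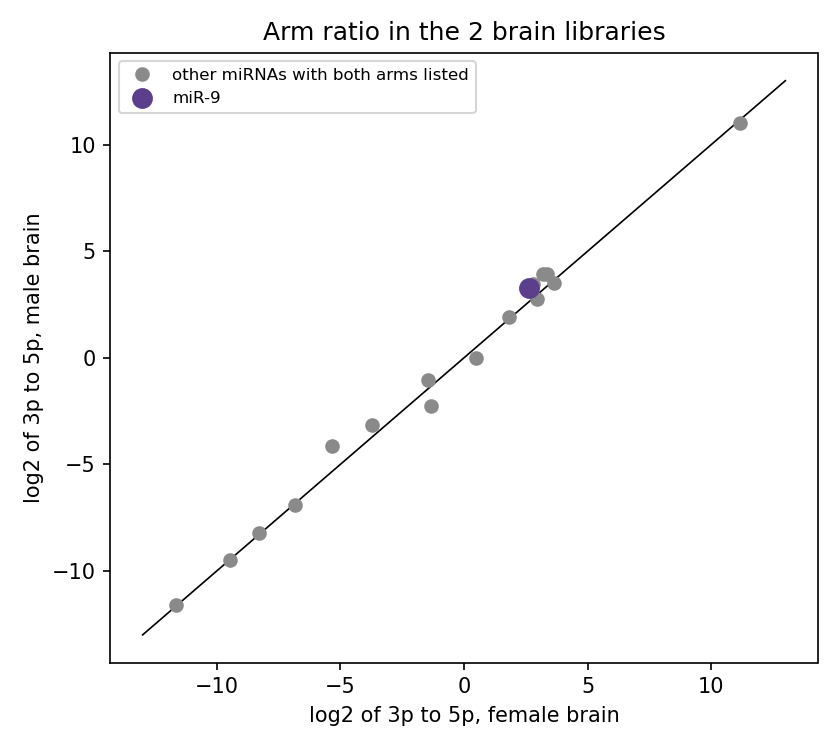
Log2 of the ratio of 3p to 5p reads in female brain (x axis) and male brain (y axis) for miR-9 and 16 other miRNAs with both arms listed in both libraries, with the line of equal ratios. Each point is 1 miRNA. The point of miR-9, at 2.64 and 3.29, lies above the line by 0.65.

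The 5p arm consisted mainly of forms that begin at position 1 and vary at the 3′ end. The 22-nt form held 41.0% of the arm in female and 49.7% in male brain. Next was the 21-nt form, with 1204 RPM (23.1%) in female and 667 RPM (18.5%) in male brain. The 23-nt forms ending in A or T stood at 447 and 443 RPM in female and 250 and 262 RPM in male brain. Each of these 4 forms was higher in the female library. Of 17 forms of miR-9-5p listed in both brains all 17 were higher in female brain, with ratios of 1.14 to 2.26. Most arms were also higher there. Of 80 arms with at least 50 RPM in the higher brain library, 67 had a ratio above 1, with a median of 1.19. The lowest ratio among the 17 forms lay below that median, so the count holds for unscaled RPM only. The 12 forms that held at least 1% of the arm in either brain covered 97.5% of it in female and 97.8% in male brain, and the other 8 reached at most 35.8 RPM in female and 19.7 RPM in male brain. Only 3 forms were listed in 1 brain, 2 in female brain, both with an unread base (N), and 1 in male brain at 7.11 RPM. That level is below the listing minimum of female brain, 8.03 RPM.

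Within the 5p arm the reads ending at positions 21 and 23 took a larger share in female brain, and those ending at positions 20, 22 and 24 a smaller one. Reads that ended at position 22 made up 45.9% of the arm in female brain (95% exact interval 45.6% to 46.2%) and 54.2% (53.9% to 54.6%) in male brain. Those ending at position 21 made up 29.1% (28.9% to 29.4%) and 24.4% (24.1% to 24.7%), and the intervals for those ending at position 23 ran from 21.76% to 22.24% and from 17.54% to 18.1%. The female-to-male ratio was 1.23 for reads ending at 22, 1.73 for reads ending at 21 and 1.79 for reads ending at 23. Reads ending at position 20 made up 2.04% in female and 2.40% in male brain, and those ending at position 24 made up 0.953% and 1.12%. By length, 22-nt reads were 48.2% of the arm in female and 55.3% in male brain. Listed substituted bases in miR-9-5p were at positions 21 and 22 only (T21A, T21G, G22A and G22T), apart from the unread base C16N. The listing minimum, 8.03 RPM in female and 6.03 RPM in male brain, limits this. Apart from T12G, no single substitution of the other arm's main form exceeded 0.243% of its level in female or 0.235% in male brain. At such shares of the main miR-9-5p form, 2144 and 1789 RPM, a substituted sequence would be unlisted. Whether the seed and the middle of miR-9-5p vary less was not tested. Each listed substitution at positions 21 and 22 can also be read as a shorter form with bases added at its 3′ end. These 2 readings were not told apart, and the shares by 3′ end count such forms by their last base. The most abundant of them, with T21G, held 3.08% of the arm in female and 3.77% in male brain.

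A minority of miR-9-5p reads began 1 base late, at position 2, and so carried the seed TTTGGTT in place of CTTTGGT. They summed to 494 RPM in female and 266 RPM in male brain, a share of 9.47% (95% exact interval 9.30% to 9.63%) and 7.38% (7.19% to 7.57%). The most abundant of them was the 22-nt form ending in A, with 214 RPM in female and 97.0 RPM in male brain. Neither seed was found in any listed sequence outside miR-9-5p.

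Most miR-9-3p reads did not begin at position 1, the 5′ end set by the seed taken as conserved. The most abundant form began at position 2 and ended in A, 1 base past the 3′ end of the reference. By itself it held 52.3% of the arm in female and 56.6% in male brain. The form that equals the reference, from position 1 to 22, was at 2777 RPM in female and 1933 RPM in male brain, 8.54% and 5.48%. By 5′ end, position 2 held 77.6% (95% exact interval 77.5% to 77.7%) of the arm in female and 81.7% (81.6% to 81.8%) in male brain, position 1 held 20.93% (20.84% to 21.02%) and 17.03% (16.94% to 17.12%), and position 3 held 1.476% (1.449% to 1.504%) and 1.30% (1.27% to 1.32%). The 1-base shift changes the seed from TAAAGCT to AAAGCTA.

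Read by seed, AAAGCTA was carried by 40 sequences of the arm that summed to 25126 RPM in female and 28665 RPM in male brain. The seed taken as conserved, TAAAGCT, was carried by 15 sequences with 6745 and 5942 RPM. AAGCTAG, from position 3, was carried by 6 sequences with 480 and 458 RPM. In both brains the shifted seed AAAGCTA was the more abundant of them. Between the brains, TAAAGCT was higher in the female library and AAAGCTA in the male library. This is on unscaled RPM, on which 67 of 80 brain arms were higher in female brain, with a median ratio of 1.19. The ratio of 1.132 for miR-9-3p reads starting at position 1 lay below that median. Outside the arm, 1 sequence shared AAAGCTA, at 9.05 RPM in female brain, and none shared the other 2. Spread over several 5′ ends was uncommon among brain arms. In 37 other arms with at least 500 RPM in both brains, the reads outside the main 5′ end had a median share of 3.05% in female and 2.61% in male brain. For miR-9-3p that share was 22.4% and 18.3%, and 2 of the 37, miR-101-3p and miR-130-3p, were above it in both brains. For miR-9-5p, with 9.47% and 7.38%, 6 of the 37 were above it in both.

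The 3′ end of miR-9-3p went with its 5′ end. Among sequences without a mismatch, those starting at position 2 ended at position 23 in 85.8% of reads in female and 88.9% in male brain. Those starting at position 1 were spread, with 42.3% and 33.2% ending at position 22, 23.4% and 24.2% at position 20, 18.4% and 22.2% at position 23 and 15.8% and 20.5% at position 21. Since lengths outside 20 to 23 nt were unlisted, a start at position 1 could be seen with ends 20 to 23 and a start at position 2 with ends 21 to 24. The length range alone therefore kept ends 20 and 24 out of 1 of the 2 classes each. By length, 22-nt reads made up 75.6% of miR-9-3p in female and 78.6% in male brain, against 49.9% and 47.4% of the reads of all other family arms in the same libraries.

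**Figure D3:**
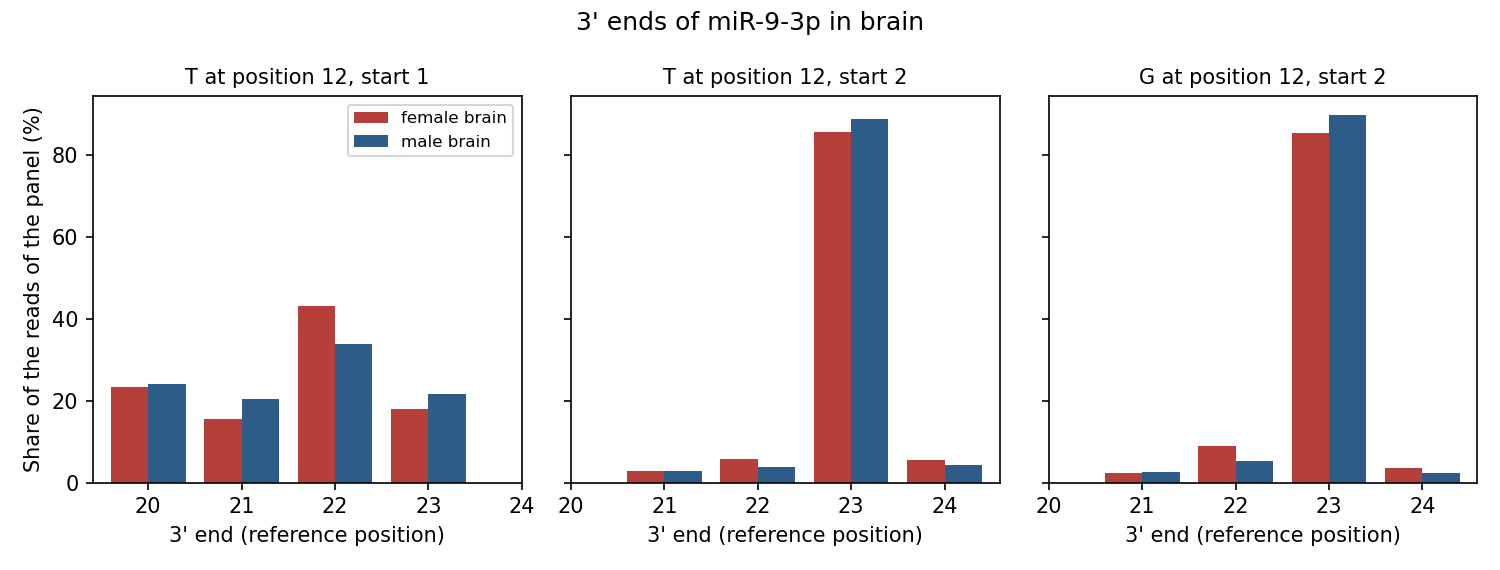
Share of reads (y axis, percent of the reads in the panel) by 3′ end position (x axis) for miR-9-3p with T at position 12 and start 1, T at position 12 and start 2, and G at position 12 and start 2, in female brain (red) and male brain (blue), 1 library each. Forms starting at position 2 ended mostly at position 23 and forms starting at position 1 were spread over positions 20 to 23, and in each panel end 22 had a larger share in female brain.

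Between the brains, the 3p reads ending at position 22 were 1.414-fold higher in female brain (95% exact interval 1.40 to 1.43), and the level of those ending at position 23 was 0.849 of that in male brain (0.846 to 0.853). Of 13 shared forms ending at 22, 12 were higher in female brain. Among them was the form that equals the reference, with a ratio of 1.44. Another was the 21-nt form starting at position 2, with 1129 RPM in female and 848 RPM in male brain and a ratio of 1.33. The counts of forms given here are of unscaled RPM, on which 67 of 80 brain arms also had a female-to-male ratio above 1. Of 23 shared forms ending at 23, 7 were higher in female brain, with ratios over all 23 from 0.577 to 2.05. The lowest ratio was of a form with an unread first base (N). The highest was of a form with G17T, a change at base 16 of the read. The form with G17A, at the same base, had a ratio of 1.43. In female brain 47 of the 49 listed sequences with N had it at base 16. Whether read errors enter these ratios was not tested. The other ends did not follow a single order along the arm. Reads ending at position 24 were 1.142-fold higher in female brain (1.123 to 1.162), with 8 of 8 shared forms higher there, and reads ending at position 20 were 1.09-fold higher (1.073 to 1.107), with 1 of 3. The level of reads ending at position 21 was 0.861 of that in male brain (0.849 to 0.873), with 2 of 5 shared forms higher in female brain. The ratio of end 22 to end 23 was then taken among sequences without a mismatch, which have T at position 12. It was 2.297 in female and 1.497 in male brain for starts at position 1, and 0.0663 and 0.0424 for starts at position 2. For sequences with start 2 and G at position 12 as the only mismatch it was 0.0972 and 0.0522. In all 3 classes the ratio was higher in female brain.

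The same measure was set beside other arms, as the level of the form 1 nt shorter than the most abundant one relative to that form. The log2 difference, female minus male, was 0.59 for miR-9-5p and 0.65 for miR-9-3p. In 29 other arms it ran from -0.38 for miR-16-5p to 0.73 for miR-26-5p, with a median of 0.05, and 17 of the 29 were above 0. Of these 29, miR-125-5p with 0.60 and miR-26-5p lay above miR-9-5p, and miR-26-5p alone lay above miR-9-3p.

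**Figure D4:**
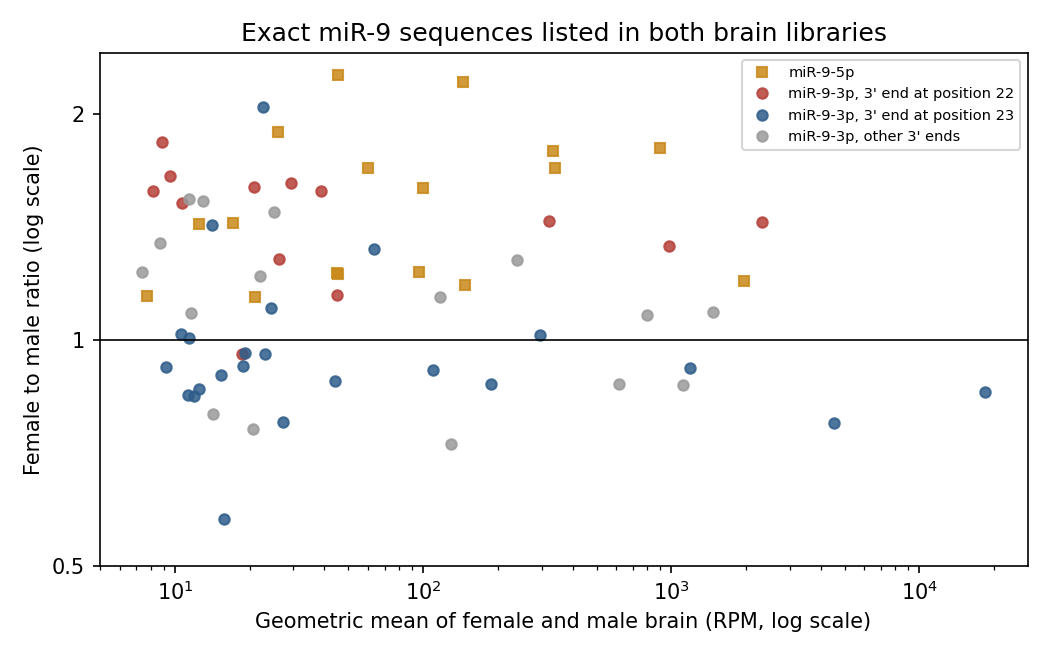
Female-to-male ratio (y axis, log scale) against the geometric mean of the 2 brain libraries (x axis, RPM, log scale) for each exact miR-9 sequence listed in both. All 17 forms of miR-9-5p (squares) lie above a ratio of 1, 12 of 13 forms of miR-9-3p ending at position 22 (red) lie above it and 7 of 23 ending at position 23 (blue) do. Ratios are of unscaled RPM, on which 67 of 80 brain arms were also above 1.

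The second most abundant miR-9-3p sequence carried the substitution T12G. It was at 3984 RPM in female and 5145 RPM in male brain, 23.4% and 25.8% of the level of the otherwise identical most abundant form. All 14 forms with G at position 12 together held 15.6% of the arm (95% exact interval 15.5% to 15.7%) in female and 17.3% (17.2% to 17.4%) in male brain. Every other single substitution of that form was far rarer. The next was A5G, at 0.243% and 0.235% of its level, and A5G, A4G and A9G were the A-to-G changes of that form listed in both brains, the last 2 with 0.142% and 0.155%, and 0.110% and 0.0977%. A further substitution, A20T, was listed in 3 forms and never without T12G, and these summed to 0.734% of the arm in female and 0.683% in male brain.

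Sequences with G at position 12 differed from those with T at their 5′ ends. Sequences of any start that ended at positions 21 to 23 were counted, ends that starts at positions 1 and 2 could both show. Of these, position 1 held 0.615% (95% exact interval 0.570% to 0.663%) of the G sequences in female and 0.439% (0.402% to 0.478%) in male brain. For the T sequences the shares were 21.03% (20.93% to 21.14%) and 16.99% (16.89% to 17.09%). In RPM, starts at position 1 came to 30.1 and 26.2 for G and 5196 and 4534 for T. The seed AAAGCTA was thus carried by nearly all reads with G at position 12. When the conserved arms were paired in silico with RNAduplex, position 12 of the 3p arm paired with position 10 of the 5p arm in a duplex of 18 base pairs and -22.9 kcal/mol. With G it was unpaired, in a duplex of 17 base pairs and -18.6 kcal/mol, and no miR-9-5p sequence with a substitution at position 10 was listed. A rare sequence of that kind could have stayed under the listing minimum. Whether the G and T sequences come from different precursors was not tested, as no genome of this fish was used.

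Of the 75 miR-9-3p sequences, 52 were listed in both brains, 30 of them higher in female brain. On the same unscaled RPM, 67 of 80 brain arms had a female-to-male ratio above 1. The 10 forms with at least 1% of the arm in either brain held 93.5% of it in female and 94.7% in male brain. The remaining 65 reached at most 299 RPM in female and 294 RPM in male brain, in both cases the 21-nt form that starts at position 3. Listed in female brain alone were 9 sequences, 8 of them with an unread base, and the other was at 8.61 RPM. That other sequence carried T12G and G17T, the latter at base 16 of the read. Listed in male brain alone were 14, from 6.03 to 12.6 RPM. How many of all listed sequences, 1150 in female and 1127 in male brain, were listed in 1 brain alone was not counted. The listing minimum was 8.03 RPM in female and 6.03 RPM in male brain. Those of the 14 under 8.03 RPM would thus have been unlisted in female brain at the same level. The unread bases belong to the female brain library as a whole. There, 49 listed sequences of any kind held an N, 47 of them at base 16 of the read, against 4 in male brain, none at base 16. They made up 0.791% of miR-9-3p in female and 0.0588% in male brain, and 0.520% of miR-9-5p in female brain. Without them the female-to-male ratio of miR-9-3p was 0.915.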

How the data were processed

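Small RNA under 30 nt was gel-purified from total RNA of pooled tissue, ligated to adaptors, amplified and sequenced, per the labels' protocols. The submitters' processing notes name CASAVA 1.7.0, and the aligner and filters are not given in the sources drawn on here. The deposited values are RPM (reads per 1000000 reads of the library) per exact sequence. This unit was read from the values, which are whole multiples of 1 read within 0.02 of a read in 100.0% of cases, so RPM here is relative to implied totals of 18660890 to 25534736 reads. Length is deposited in nt. Members and lists were chosen with earlier results of these data known. The miR-9 references are the most abundant brain sequences with the conserved seeds. Other family arms (1060 sequences in 116 arms, 5 tied, 506 unassigned) were matched to 160 hand-written mature sequences recalled without a database, 3 added after unassigned sequences were seen.

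Organs were compared with limma 3.58.1 in R 4.3.3 (pseudocount 1, threshold 0.05 after Benjamini-Hochberg adjustment over 112 arms). Nothing states that libraries come from separate fish pools beyond sex and organ, so p-values can measure at most the spread between libraries. For both miR-9 arms the raised minimum left liver and gonads without spread. Their SE and p-values thus rest on the difference between female and male brain and on the spread that limma borrows from other arms. Ratios and shares carry exact binomial 95% intervals (scipy 1.17.1). Duplexes were computed with RNAduplex 2.7.2. Named were both arms, forms of at least 1% of an arm, and the 5 nearest arms.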

Additional observations from a re-analysis of the deposited data

How the results depend on the processing

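In limma both arms were higher in brain than in liver and in gonads under all 44 combinations of arm, organ and alternative, with log2 differences of 4.86 to 15.05. Because both arms were unlisted outside brain, this direction was fixed before the fits, and the 44 results do not check it. The sizes of the differences follow the floor given to unlisted sequences. With 1 brain library left out, the lone library is assumed to vary like the other groups. Arms called higher in brain fell from 74 to 28 against liver and from 76 to 28 against gonads when scaled to miRNA family reads, and to 38 and 35 with median-of-ratios scaling. These settings also changed the floor (10.03 RPM, to 57.32 and 21.99 on the scaled values) and the arms tested (112, to 88 and 91), and the cause was not tested. Leaving out a library gave 63 to 70 and 63 to 72. Without a 5′ shift, miR-9-5p came to 4727 RPM in female and 3337 RPM in male brain and miR-9-3p to 6803 and 6007 RPM, and the ratio of 3p to 5p to 1.44 and 1.80, because most 3p reads start at position 2. Without mismatches, the arms came to 4847 and 3328 RPM (5p) and 26790 and 28660 RPM (3p), the ratio to 5.53 and 8.61, the share of 5p reads starting at position 2 to 10.2% and 7.98%, that of 3p reads starting at position 1 to 24.5% and 20.3%, and the female-to-male ratio of 3p to 0.935. With at most 1 mismatch, male miR-9-5p was 3576 RPM and miR-9-3p 32180 and 34990 RPM. Sequences at or above the common minimum gave 35110 RPM for male miR-9-3p. Dropping sequences with N, an alternative chosen after seeing the data, gave 32250 RPM for female miR-9-3p and a female-to-male ratio of 0.915. The most abundant exact forms gave a 3p to 5p ratio of 7.93 and 11.2. The female-to-male ratio was 1.31 and 1.23 for miR-9-5p and 0.836 and 0.783 for miR-9-3p when scaled to family reads and by median of ratios. Without a 5′ shift, added after seeing the data, it was 1.417 for miR-9-5p and 1.132 for miR-9-3p. On unscaled RPM the direction of miR-9-3p between the brains thus turned, and no scaled ratio was computed without a 5′ shift. The planned count test was not run. The labels give no replicate numbers, and the fit that pairs libraries by sex, with sex as a block, left both arms called. Sequences below 112 to 256 reads were unlisted, which limits what can be said of both arms in liver and gonads.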
